A study of Homo sapiens with 2 samples.

Results

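The potassium channel genes of SF-539, an established human GBM cell line, were taken as all protein-coding genes of the deposited table whose symbol starts with KCN. There were 97 such genes among 19951 protein-coding genes and 58735 genes in all, and none was chosen by its level. RNA came from SF-539 cells at passages 15 to 18, infected with lentivirus of the pGIPZ type and selected with puromycin. The vector carried a control hairpin in the cells called shControl and a hairpin directed at FKBP9 in those called shFKBP9. There was 1 library per condition. A difference between the libraries therefore has no replicate check, and the intervals given below cover counting error only. Both groups thus carry a vector and the selection marker. The labels speak of stable clones, but the number of clones behind each library, and which of the study's FKBP9 shRNAs it carried, are not given in the sources used here.

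Potassium channels let potassium leave or enter the cell along its electrochemical gradient and so set the resting membrane potential. Each pore-forming subunit contributes a short loop, the selectivity filter, that strips water from potassium ions, while auxiliary subunits alter gating and transport to the cell surface. In glioma cells, calcium-activated potassium channels are known for their part in changes of cell volume and in migration, and in astrocytes inward rectifiers clear extracellular potassium. By family, 79 of the 97 genes encode pore-forming subunits and 18 encode auxiliary or regulatory proteins.

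The filter can be read in the coding sequence, without use of expression. Families were assigned from general knowledge, to which the filter also belongs, so the search is no independent check of this division. Canonical coding sequences of GENCODE release 44 (hg38) were searched in frame, on the coding strand only, for 5 codons in a row. The first was ACN, TCN or AGN, the second any codon, the third GGN, the fourth TAN or TTN and the fifth GGN, which allows a glycine, an aromatic residue or leucine, and a glycine in a row. All 79 pore-forming genes held at least 1 match and 0 of the 17 auxiliary genes with a canonical coding sequence did (KCNE1B has none there), against 3.84% of 20046 protein-coding transcripts. Of the 15 tandem pore domain genes, whose subunits have a pair of pore loops, 11 held 2 matches. This count is limited by the pattern, which misses a loop with a leucine codon of the form CTN. The filter codons of 7 channels expressed in SF-539 cells are shown in capitals within 30 bases, 5′ to 3′, to let the families be compared.
KCNN4: ttcctgACCATCGGCTATGGTgacgtggtg
KCNN3: ttccttTCCATTGGTTATGGGgacatggtg
KCNMA1: atgtccACCGTTGGTTATGGGgatgtttat
KCNS3: atgacaACTGTGGGCTATGGAgacacccac
KCNA7: atgactACAGTTGGCTATGGAgacatggca
KCNC4: atgacgACACTGGGCTACGGAgacatgtac
KCNJ15: cagacaACCATTGGCTATGGAgtccgttcc

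These stretches lie in coding exons. That of KCNN4 is at chr19:43772048-43772077 on the minus strand (exon 4 of 9), that of KCNN3 at chr1:154733051-154733080 on the minus strand (exon 4 of 8), and that of KCNMA1 at chr10:77110227-77110256 on the minus strand (exon 8 of 28). KCNS3 has it at chr2:17932110-17932139 on the plus strand (exon 3 of 3), KCNA7 at chr19:49070339-49070368 on the minus strand (exon 2 of 2), KCNC4 at chr1:110223585-110223614 on the plus strand (exon 2 of 4) and KCNJ15 at chr21:38299634-38299663 on the plus strand (exon 3 of 3). In all 7 the fourth codon is one for tyrosine, and KCNN3 alone among them opens with a serine codon. KCNG1, KCNS1 and KCND1, the other pore-forming genes at 1 FPKM or more, also held 1 match each, which in KCND1 spans an intron.

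The deposited values are FPKM, in which the fragments on a gene are divided by its length and by the size of the library, and from which the fragments themselves could be recovered. There were 18116873 fragments on genes in shControl and 17158514 in shFKBP9. FKBP9, the targeted gene, stood at 49.8 FPKM in the control library and at 4.68 in shFKBP9. Of 10 astrocyte and glioma markers, 3 reached 1 FPKM, namely SLC1A3 (8.60 and 9.14 FPKM in shControl and shFKBP9), SOX9 (4.51 and 2.93) and NES (2.36 and 2.17). AQP4 had 0 fragments in both libraries, S100B had 0 and 1, and GFAP stood at 0.196 and 0.139 FPKM. Of 7 mesenchymal markers 6 reached 1 FPKM, with COL1A1 at 837 and 884 FPKM. The labels call the cells epithelial. Of 6 epithelial markers KRT8 alone reached 1 FPKM (1.28 and 1.09), while CDH1 had 0 and 1 fragments, KRT14 had 1 and 24, and EPCAM stood at 0.241 and 0.324 FPKM.

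Of the 97 potassium channel genes, 11 reached 1 FPKM in at least 1 library, which is 11.3%, against 51.9% of all protein-coding genes. They were KCNN4, KCNS3, KCNG1, KCNS1, KCNMA1, KCNE4, KCNN3, KCNA7, KCND1, KCNC4 and KCNJ15, and 10 of them reached it in both libraries. A further 18 genes lay between 0.1 and 1 FPKM, 32 had fragments but stayed under 0.1 FPKM, and 36 had 0 fragments in both libraries. A count of 0 allows up to 3 fragments, which for these 36 genes corresponds to 0.0083 to 0.143 FPKM in shControl and 0.00875 to 0.151 FPKM in shFKBP9, depending on gene length. The FPKM of all 97 genes summed to 65.4 in shControl and to 65.8 in shFKBP9.

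**Figure D1:**
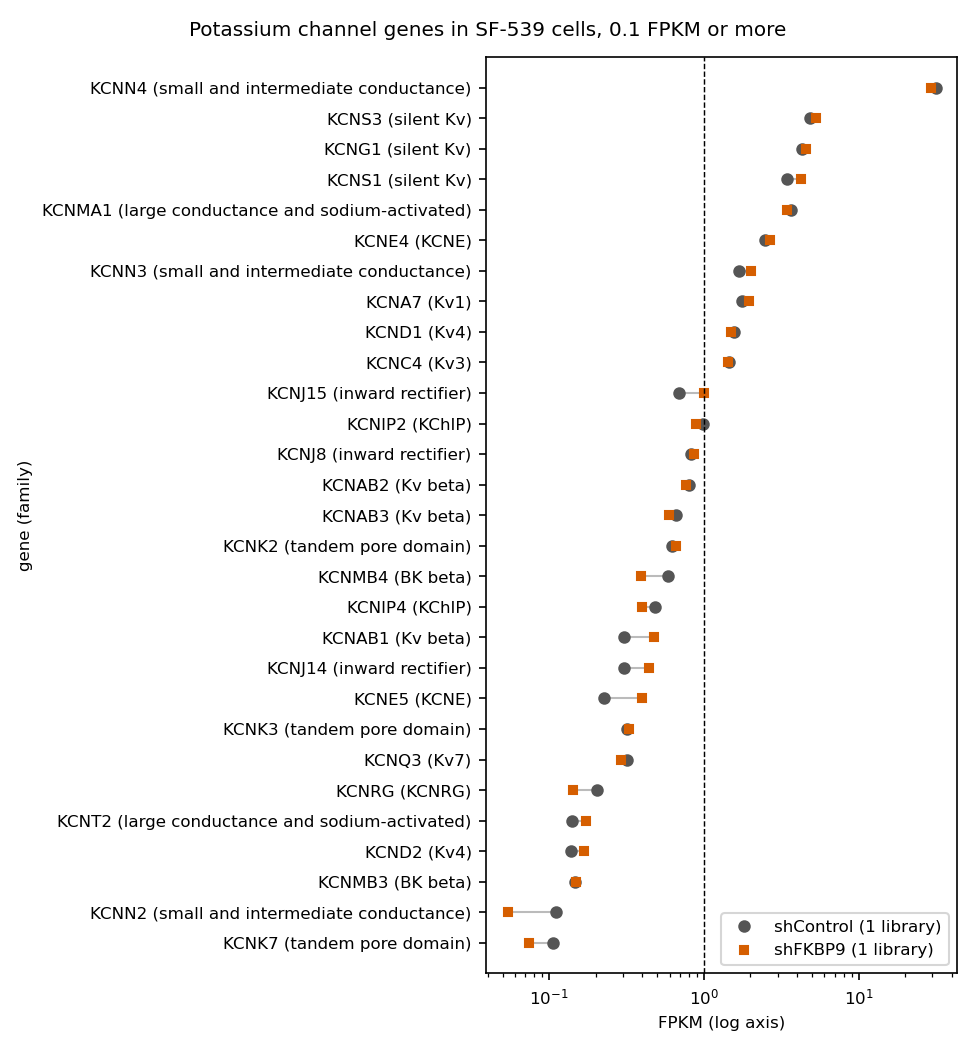
FPKM (log axis) of the 29 potassium channel genes that reached 0.1 FPKM in either library, ordered by the higher of their values, with a circle for the shControl library and a square for the shFKBP9 library and the family in brackets. The dashed line marks 1 FPKM, and KCNN4 stands apart from all others at 31.5 and 29.6 FPKM.

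KCNN4 encodes the intermediate conductance channel that opens when calcium binds to its calmodulin. It had 31.5 FPKM in shControl (1941 fragments) and 29.6 FPKM in shFKBP9 (1730 fragments). It thus held 48.1% and 45.0% of the summed level of all potassium channel genes. The next gene, KCNS3, was 6.46-fold lower in shControl (95% interval 5.69 to 7.36) and 5.62-fold lower in shFKBP9 (4.95 to 6.39). This gap rests on the deposited gene lengths, and with canonical transcript lengths the next gene was KCNMA1, 2.63-fold lower in shControl and 2.61-fold lower in shFKBP9. Among all protein-coding genes, 92.8% had a lower level than KCNN4, whereas the other 10 channels ran from 48.2% for KCNJ15 to 67.8% for KCNS3. The shFKBP9 to shControl ratio of KCNN4 was 0.941 (95% interval 0.882 to 1.005).

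Its relatives of small conductance, which are also gated through calmodulin, were much lower. KCNN3 had 1.70 FPKM in shControl (418 fragments) and 2.01 FPKM in shFKBP9 (470 fragments), a ratio of 1.19 (95% interval 1.04 to 1.36). KCNN2 had 13 fragments in shControl and 6 in shFKBP9. KCNMA1, the large conductance channel opened by voltage and calcium together, had 3.66 FPKM in shControl and 3.46 FPKM in shFKBP9. Its fragments, 2361 and 2120, were the most of any potassium channel gene, spread over a deposited gene length of 35644 bases. The ratio of KCNMA1 was 0.948 (0.894 to 1.006). Of the 8 pore-forming genes of the calcium- and sodium-activated families, KCNN4, KCNMA1 and KCNN3 reached 1 FPKM.

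Auxiliary subunits of the large conductance channel had few fragments. KCNMB4, which slows its gating, had 0.589 FPKM in shControl (52 fragments) and 0.394 FPKM in shFKBP9 (33 fragments), with a ratio of 0.67 (95% interval 0.42 to 1.06). KCNMB3 had 24 and 23 fragments, but 3403 bases of its exons overlap those of PIK3CA on the other strand, which had 379 and 390, and 864 bases overlap LRRFIP1P1 on its own strand, with 26 and 17. Its level came to 1.22 and 1.23 FPKM when the same fragments were divided by the canonical length. The leucine-rich repeat partners LRRC26, LRRC38, LRRC52 and LRRC55 had 0 fragments in both libraries.

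By the summed FPKM of a family with deposited lengths, silent voltage-gated subunits came next after the small and intermediate conductance family. These proteins resemble voltage-gated channels but form no channel on their own, and assemble with Kv2 subunits, whose currents they modify. KCNS3 had 4.87 FPKM in shControl (276 fragments) and 5.26 FPKM in shFKBP9 (283 fragments). KCNG1 had 4.33 and 4.56 FPKM, from 426 fragments in each library. KCNS1 had 3.43 FPKM in shControl (282 fragments) and 4.22 FPKM in shFKBP9 (329 fragments). Together these 3 genes held 12.6 FPKM in the control library and 14.1 in shFKBP9. KCNB2, which encodes such a partner, had 0 fragments in both libraries. AMIGO1, an adhesion protein that accompanies Kv2 channels, had 0.311 and 0.385 FPKM. The other 7 silent subunit genes stayed under 0.1 FPKM, and 3 of them had 0 fragments.

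The shFKBP9 to shControl ratio was 1.23 for KCNS1 (95% interval 1.05 to 1.45), 1.08 for KCNS3 (0.91 to 1.28) and 1.06 for KCNG1 (0.92 to 1.21). The difference was larger than counting error for KCNS1 but not for KCNS3 and KCNG1. This rests on 95% intervals, and with 99% intervals KCNJ15 alone of the 11 genes at 1 FPKM or more left out 1.

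Of the voltage-gated channels that conduct on their own, 1 gene each of the Kv1, Kv3 and Kv4 families reached 1 FPKM. KCNA7 had 1.76 FPKM in shControl (139 fragments) and 1.95 FPKM in shFKBP9 (146 fragments). KCND1, which encodes a subunit of rapidly inactivating A-type currents, had 1.56 FPKM (164 fragments) and 1.49 FPKM (149 fragments). KCNC4, a subunit of channels that open on strong depolarization, had 1.45 FPKM (656 fragments) and 1.43 FPKM (614 fragments). For none of these was the difference between the libraries larger than counting error, with ratios of 1.11 for KCNA7 (95% interval 0.87 to 1.41), 0.96 for KCND1 (0.76 to 1.20) and 0.99 for KCNC4 (0.88 to 1.10). In all, 6 of the 40 voltage-gated pore-forming genes, silent subunits included, reached 1 FPKM.

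In the Kv7 and EAG families no gene did. Among the 5 Kv7 genes, which carry the M-current of neurons and the slow delayed rectifier of the heart, the highest was KCNQ3 at 0.319 and 0.290 FPKM, and KCNQ1 had 6 and 4 fragments. The 8 genes of the EAG family, to which the cardiac repolarizing channel KCNH2 belongs, had 12 fragments in shControl and 9 in shFKBP9 together, and KCNH2 had 0 in both. KCNA3 and KCNA5 of the Kv1 family also had 0.

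Inward rectifiers, which pass potassium more readily into the cell than out of it, formed the largest family, with 16 genes. Only KCNJ15 reached 1 FPKM, and it did so in shFKBP9 alone. It had 0.694 FPKM in shControl (130 fragments) and 1.003 FPKM in shFKBP9 (178 fragments). Its ratio was 1.45 (95% interval 1.15 to 1.83), in a gene that passed the minimum through the higher library alone. KCNJ8, a pore subunit of ATP-sensitive channels, had 0.823 and 0.868 FPKM, from 37 fragments in each library. ABCC9, the sulfonylurea receptor that pairs with it, had 0.290 FPKM in shControl and 0.356 in shFKBP9. KCNJ11 had 0 fragments in both libraries, and its partner receptor ABCC8 had 0 and 1. KCNJ10, the rectifier that is abundant in astrocytes, had 4 fragments in shControl and 1 in shFKBP9. KCNJ14 had 24 and 33 fragments, with 285 bases of its exons shared with GRWD1.

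Tandem pore domain channels carry the background leak of potassium. The highest of the 15 was KCNK2, a channel that responds to membrane stretch, with 0.622 FPKM in shControl and 0.655 in shFKBP9, from 44 fragments in each. KCNK3 had 0.319 and 0.328 FPKM, and KCNK1 and KCNK5 had 0 fragments in both libraries. The whole family summed to 1.10 FPKM in shControl and 1.23 in shFKBP9.

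Of the 18 auxiliary and regulatory genes, KCNE4 was the only one at 1 FPKM or more by the deposited lengths, and 6 were with the length of the canonical transcript. KCNE4 encodes a protein with a single membrane span that inhibits KCNQ1 and some Kv1 channels, and lies at chr2:223051814-223198399. It had 2.49 FPKM in shControl (186 fragments) and 2.67 FPKM in shFKBP9 (189 fragments), a ratio of 1.07 (95% interval 0.87 to 1.32). The calcium-binding protein KCNIP2, a partner of Kv4 channels, lay just under the line at 0.992 and 0.892 FPKM (61 and 52 fragments), while KCNJ15 lay just above it. The Kv beta subunits, which are related to oxidoreductases and bind Kv1 channels, were all present at a low level. KCNAB2 had 0.799 and 0.770 FPKM, KCNAB3 0.663 and 0.598 FPKM, and KCNAB1 0.306 and 0.476 FPKM. The Kv4 partners DPP6 and DPP10 had 0 fragments in both libraries.

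Neighbours in the order of the 11 levels were not always separable by their fragments. In shControl, KCNS3 and KCNG1 did not differ beyond counting error, nor did KCNMA1 and KCNS1, and the run KCNA7, KCNN3, KCND1 and KCNC4 was not separable at any of its steps. In shFKBP9, KCNS1 stood above KCNMA1 by 1.22-fold (95% interval 1.08 to 1.37), whereas KCNG1 and KCNS1 were not separable. In both libraries KCNN4 stood above all others and KCNJ15 was the lowest of the 11, 2.08-fold under KCNC4 in shControl (1.72 to 2.54) and 1.42-fold under it in shFKBP9 (1.20 to 1.69).

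This order also depends on the length by which fragments are divided. The deposited length can exceed that of a single transcript, and for KCNMA1 and KCNC4 it is 5.69 and 6.05 times that of the canonical transcript. Divided by the canonical length, the same fragments gave KCNMA1 20.8 FPKM in shControl and 19.7 in shFKBP9, and KCNC4 8.75 and 8.64 FPKM. KCNG1 moved to 10.7 and 11.3 FPKM and KCNN4 to 54.8 and 51.5 FPKM. KCNMA1 then came after KCNN4 and ahead of KCNG1, KCNC4 and KCNS3, and 16 genes reached 1 FPKM in place of 11. The genes added were KCNIP2, KCNAB1, KCNAB2, KCNAB3 and KCNMB3, all auxiliary. These values are upper limits where fragments fell on exons outside the canonical transcript. The ratios between the libraries do not depend on the length.

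Between the libraries, 0 of the 11 genes were 2-fold higher in shFKBP9 and 0 were 2-fold lower (log2 ratio with 0.1 added to FPKM). Over the 10346 protein-coding genes at 1 FPKM or more, 0.213% were 2-fold higher and 0.193% 2-fold lower, and 0 of 11 is not apart from this background. The log2 ratios of the 11 genes ran from -0.09 for KCNN4 to 0.47 for KCNJ15, with a median of 0.10 beside -0.02 over all those protein-coding genes, and 7 of the 11, KCNJ15 included, were above 0, where 46.3% of the protein-coding genes were. For KCNJ15, KCNS1 and KCNN3 the 95% interval of the ratio lay above 1. That is 3 of 11 genes, where 20.0% of the protein-coding genes had such an interval. KCNJ15 is among the 11 through its shFKBP9 value alone, and of the 10 genes at 1 FPKM in both libraries 2 had such an interval. It lay below 1 for 0 of the 11, where 23.6% of the protein-coding genes did. The upper bounds of KCNN4 and KCNMA1, the 2 genes with the most fragments, were just above 1, and came to lie below 1 after rescaling to TPM.

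Below 1 FPKM, 22 potassium channel genes had at least 10 fragments in the 2 libraries together. Of these, 0 were 2-fold higher or lower when 0.1 was added to FPKM, where 1.37% and 1.48% of the 2696 protein-coding genes of this kind were. Without the addition 1 was past 2-fold, KCNN2, with a ratio of 0.487 (95% interval 0.152 to 1.37) from its 13 and 6 fragments. In 1 gene, KCNAB1, the interval lay above 1, with 38 fragments in shControl, 56 in shFKBP9 and a ratio of 1.56 (95% interval 1.01 to 2.41), and 5.19% of those protein-coding genes had such an interval. It lay below 1 for 0 of the 22, against 6.34%. Of the 22 genes 11 were higher and 11 lower, with a median log2 ratio of -0.02, beside -0.01 over the protein-coding genes of this kind. The remaining 28 genes with fragments had 1 to 9 in the 2 libraries together, and for 0 of these did the interval leave out 1, which takes at least 6 fragments even when all lie in 1 library. All 97 genes together held 7733 fragments in shControl and 7346 in shFKBP9, a ratio of 1.003 (0.971 to 1.036) once divided by the fragments on genes in each library.

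**Figure D2:**
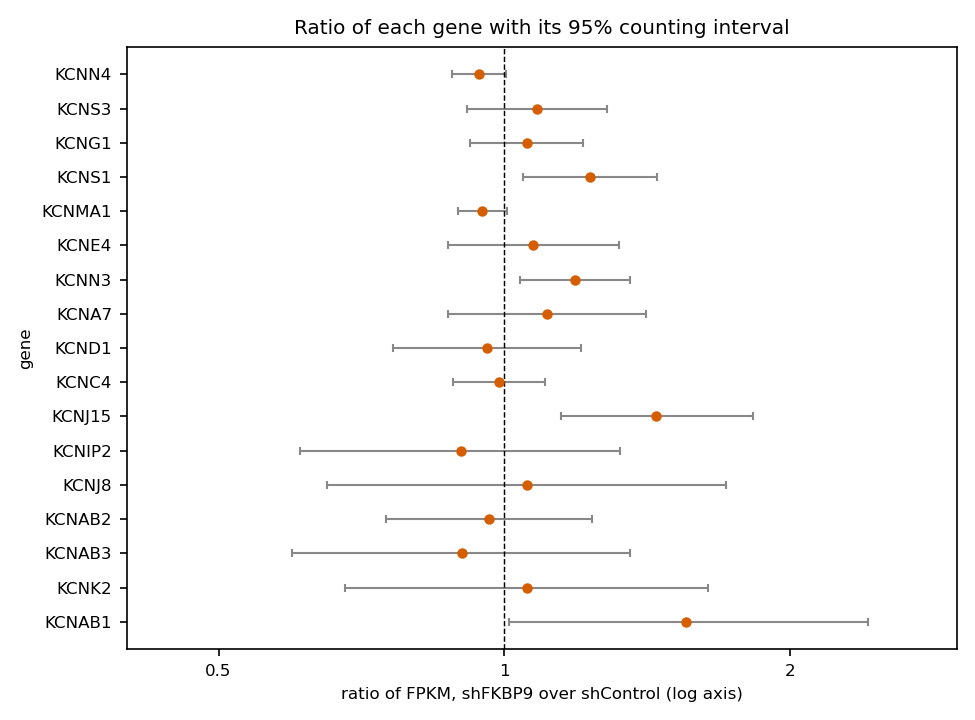
Ratio of FPKM in shFKBP9 to shControl (log axis) of the 11 potassium channel genes at 1 FPKM or more, the 5 just under it and KCNAB1, with bars for the 95% counting interval and a dashed line at 1. The bars of KCNS1, KCNN3, KCNJ15 and KCNAB1 lie above 1, and none lies below it. KCNAB1 is shown because its interval leaves out 1, and KCNJ15 is among the 11 through its shFKBP9 value alone.

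Several cell type markers also differed between the libraries by more than counting error. Of the 13 at 1 FPKM or more, the interval lay above 1 for 6, namely ACTA2, CNN1, CD44, COL1A2, VIM and COL1A1, and below 1 for SOX9 and S100A4, beside 20.0% and 23.6% of the protein-coding genes. Intervals are narrow for the most abundant of them, such as COL1A1 with 148817 fragments in shControl and 148937 in shFKBP9. The ratio was 1.15 for CD44 (95% interval 1.11 to 1.18), 1.11 for COL1A2, 1.07 for VIM, 1.06 for COL1A1, 0.903 for S100A4 and 0.651 for SOX9 (0.543 to 0.780). The mesenchymal list summed to 2012 FPKM in shControl and 2123 in shFKBP9, and the astrocyte and glioma list to 16.5 and 15.3. Of 4 muscle markers 2 reached 1 FPKM, and both were higher in shFKBP9 by more than counting error. ACTA2 had 34.0 and 50.4 FPKM and CNN1 12.1 and 18.0 FPKM, while MYH11 had 37 and 43 fragments and DES 13 and 4. The muscle list summed to 46.6 FPKM in shControl and 68.7 in shFKBP9. The part of these markers in the values of KCNJ15, KCNS1 and KCNN3 was not tested. Of 6 neuron markers, SNAP25 alone reached 1 FPKM (4.98 and 5.76), the list summed to 5.62 and 6.22 FPKM, and STMN2 and NEFL had 0 fragments. The epithelial list summed to 1.80 and 2.36 FPKM. Of it KRT14, under 1 FPKM, differed by more than counting error, at 0.0242 and 0.613 FPKM from its 1 and 24 fragments (ratio 25.3, 95% interval 4.13 to 1042), while KRT8 and KRT18 were lower in shFKBP9 within counting error. None of 4 immune and 3 endothelial markers reached 1 FPKM, with sums of 0.734 and 1.03 FPKM and of 0.107 and 0.149 FPKM, and PTPRC and AIF1 had 0 fragments.

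Beyond the channel genes themselves, 46 further genes of potassium transport and channel assembly were examined. Of these 14 reached 1 FPKM. Among the 14, 0 were 2-fold higher or lower, the interval lay above 1 for 0 and below 1 for 3, beside 20.0% and 23.6% of the protein-coding genes, and the median log2 ratio was -0.02. Among the 3 were ATP1B3 and FXYD5, which encode a beta subunit and a regulator of the sodium-potassium pump that builds the potassium gradient. ATP1B3 had 94.2 and 86.0 FPKM, with a ratio of 0.914 (0.875 to 0.955), and FXYD5 54.3 and 50.2 FPKM, with a ratio of 0.925 (0.877 to 0.975). ATP1B1 went the other way, at 12.7 and 14.0 FPKM (1.10, 0.99 to 1.22).

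Among the cation-chloride cotransporters, SLC12A4 had 17.3 FPKM in shControl and 16.7 in shFKBP9, and SLC12A2, which brings potassium into the cell with sodium and chloride, 2.55 and 2.84. LRRC8A, the essential subunit of the volume-regulated anion channel, had 13.5 and 14.1 FPKM. HCN2, a cation channel opened by hyperpolarization that is built like a potassium channel, had 14.9 FPKM in shControl and 16.2 in shFKBP9, above every potassium channel gene but KCNN4 when the deposited lengths are used. Of the other members of its group HCN3 had 2.47 and 2.28 FPKM, and HCN4 had 0 fragments in both libraries.

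Shared sequence touched the canonical transcripts of the 11 genes little. At most 2.15% of the 50-base words of a canonical transcript, the value for KCNA7, also occurred in transcripts of another gene. Words were compared on the transcript strand only. Exons outside the canonical transcript, most of the deposited length of KCNMA1 and KCNC4, were not searched. Exons of KCNG1, KCNJ15 and KCNMA1 overlapped those of noncoding genes, with 434, 125 and 419 bases. On the genes in question, 10 and 4 fragments were counted for KCNMA1-AS1 and 0 for the others, and whether counting used the strand is not given in the sources used here. Among the lower genes, exons of KCNAB1 shared 121 bases with a noncoding gene of 6 and 10 fragments, those of KCNAB2 shared 212 bases with NPHP4 (314 and 253 fragments) and those of KCNIP2 shared 444 bases with KCNIP2-AS1 (5 and 3), all on the other strand.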

How the data were processed

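The deposited table gives 1 value per gene for each of the 2 libraries, as FPKM. The authors removed adapter-containing, undetermined and low-quality reads, aligned read pairs to hg38 with HISAT2 2.0.5 and counted them per gene with featureCounts 1.5.0-p3. The authors' own edgeR results for shFKBP9 against shControl were not used here. The annotation release behind the gene lengths is not given in the sources used here, and there were 0 value columns left unused.

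Fragments were recovered as FPKM times gene length over the smallest such product of the library; 100% of values above 0 came out whole (tolerance 1e-06). One fragment per kilobase is 0.0552 FPKM in shControl and 0.0582 in shFKBP9. How duplicate reads were treated is not given in the sources used here. Ratios of shFKBP9 to shControl have exact Clopper-Pearson 95% intervals from the fragments, without any addition, and log2 ratios have 0.1 added to both FPKM values. With 1 library per condition no test between conditions was made. A gene was counted as expressed at 1 FPKM in either library and as differing at 2-fold. The named genes were FKBP9, members at 1 FPKM or more, the 5 just under it, members with at least 10 fragments whose interval left out 1, members past 2-fold with at least 50 fragments, partner genes at 1 FPKM or more, and cell type markers. Other members and partners named at lower levels were chosen after their values were seen, as examples of their families. The members and lists were chosen with earlier results of these data known, and the families were assigned from general knowledge. Transcript lengths, exons and sequences came from GENCODE release 44 (hg38). In it, 29 of the 97 genes have the same start and end as in the deposited table. Recovery, intervals and fold counts were tested on simulated data. Scripts ran in Python 3.11.15, with scipy 1.17.1 for the intervals, pandas 2.3.3 and numpy 2.4.6 for the tables, and matplotlib 3.10.9 for the plots. Values of some single genes are not reported here.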

Additional observations from a re-analysis of the deposited data

How the results depend on the processing

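The number of potassium channel genes counted as expressed, 11 as reported, was 17 with a minimum of 0.5 FPKM, 7 with 2 FPKM and 23 with 1 TPM in place of 1 FPKM, since 1 FPKM equals 3.71 TPM in shControl and 3.66 TPM in shFKBP9. It was 16 with canonical transcript lengths, an alternative chosen after seeing the data, and 10 among pore-forming genes or with 1 FPKM required in both libraries. The number past 2-fold was 0 in each direction with 0.01 or 1 added to FPKM, with either scaling, without a minimum and with 1 FPKM required in both libraries, each changed alone. Without any addition, KCNN2 was the only gene past 2-fold among those under 1 FPKM with at least 10 fragments. Genes with fewer fragments were not part of that count. The number of the 11 genes whose interval left out 1 was 3 as reported and 1, KCNJ15, with 99% intervals. It was 5 after rescaling to TPM, when KCNN4 and KCNMA1 came to lie below 1. In an alternative chosen after seeing the data, it was 2 with 1 FPKM required in both libraries. The summed level, 65.4 and 65.8 FPKM in shControl and shFKBP9, was 243 and 241 as TPM, 58.5 and 58.8 FPKM for pore-forming genes, 34.0 and 36.2 FPKM without KCNN4, and 127 and 125 FPKM with canonical lengths. Of 72 values of single genes under other additions and scalings, 71 stayed within the counting interval, and the log2 ratio of FKBP9 moved from -3.38 to -3.16 with 1 added. These values cover 18 genes, FKBP9 and 17 potassium channel genes, and in 0 of them did the sign change. Of the 14 partner genes and 13 markers at 1 FPKM or more, TMEM175 and FN1 differed by less than the shift of a scaling. Scaling by the median gene moved all log2 ratios by 0.02. Depth limits most of the 97 genes: 28 had 1 to 9 fragments and 36 had 0. No paired analysis was possible because each condition has 1 library. No library could be left out for the same reason.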

Other observations

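The deposited table also holds 21 noncoding genes whose symbol starts with KCN, most of them antisense or intronic RNAs of potassium channel genes. Of these 11 had a fragment, and 0 reached 1 FPKM. The one with the most fragments was KCNQ1OT1, an antisense RNA known from the imprinted region within KCNQ1, with 215 fragments in shControl and 208 in shFKBP9. Per length it stood at 0.130 and 0.132 FPKM, and KCNQ1 itself at 0.0745 and 0.0524 FPKM from 6 and 4 fragments. KCNIP2-AS1 was higher per length, at 0.325 and 0.206 FPKM, from 5 and 3 fragments, and KCNMA1-AS1 had 10 and 4 fragments.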
